A study of Mus musculus with 10 samples.

Results

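A stretch of mouse chromosome 11 that holds Col1a1, at chr11:85000001-100000000 of the mm9 build, was described by read depth, by the single CpG positions listed and by methylation. Its members were the 1000-bp windows with at least 20 read calls over 10 libraries, where 1 call is 1 read at 1 cytosine, without the segment chr11:96050000-96230000. These numbered 3136 of 288887 such autosomal windows. The rest of chromosome 11 gave 17469 and a second stretch, chr6:105500001-120500000, gave 1850. Another 6751 windows of the stretch had calls but fewer than the minimum. At the minimum, 100 windows had exactly 20 calls, and 108 windows just outside had 19. The stretch was chosen because the genotypes differed there, so depth, listed positions and methylation between knockin and WT are given as descriptions without a test.

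The libraries came from 2 leukaemia models in mice, profiled by reduced representation bisulfite sequencing. MLL-AF9 leukaemia, driven by a fusion oncoprotein, gave c-kit+ leukaemic cells from spleen, as 3 WT and 3 Dnmt3b-knockin libraries. The cMyc-Bcl2 model, in which a Myc transcription factor and the survival protein Bcl2 drive the disease, gave leukaemic cells from spleen, as 2 WT and 2 Dnmt3b-knockin libraries. The knockin is part of a tetracycline-inducible model of high Dnmt3b expression. The labels used here give neither the place and promoter of the transgene, nor the strain, nor whether replicates were separate animals. The p-values below therefore measure only the spread between these libraries, which may be technical. Libraries held 14446933 to 46762220 read calls. The stretch took 1.12 to 1.21% of them and the rest of chromosome 11 took 6.41 to 6.85%, with the lowest value of both in cMyc-Bcl2 WT replicate 1. Summed over the stretch, the genotypes overlapped in depth.

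In this assay MspI cuts genomic DNA at CCGG, fragments within a size range are kept, and bisulfite treatment turns unmethylated cytosine into a base read as thymine. A cytosine is therefore seen only when it lies near a cut site of a fragment of suitable length and when the read aligns as a CpG. Dnmt3b is a de novo DNA methyltransferase, which adds methyl groups to unmethylated CpGs. Col1a1 encodes a chain of type I collagen, and the region beside it is widely used to place inducible transgenes in mouse embryonic stem cells. The gene itself was not matched to listed positions. In the RefSeq gene order it lies between Xylt2, whose start was matched at 94538807, and Ppp1r9b, matched at 94852526, with 12 and 2 genes between. Genes were placed by matching the CpG spacing of RefSeq promoter sequences to the listed positions, and 98 genes had a matched promoter in the stretch.

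Knockin libraries listed cytosines in the stretch that no WT library listed. In the 250 bases before the start, Nme1 shows the pattern in both models, and Brip1, Pctp and Wipf2 show it in cMyc-Bcl2. Pctp also had 2 such cytosines in both models just past its start, at 89864182 and 89864187, and the matched promoter of Smg8 had 2. Past the Brip1 start there were 2 in both models as well, at 86014621 and 86014624, the nearer 71 bp away. Nme1 encodes a nucleoside diphosphate kinase, Brip1 a DNA helicase that binds BRCA1, Pctp a phosphatidylcholine transfer protein, and Wipf2 a partner of the actin regulators WASP and N-WASP. The 250 bases before each start are printed below, 5′ to 3′ in the direction of the gene, from the RefSeq promoter table of GRCm38.p6. Capitals mark each CpG with a cytosine that had at least 5 reads in each knockin library and 0 reads in each WT library, over all 10 libraries for Nme1 and over the 4 cMyc-Bcl2 libraries for the others. The letters are those of the reference, not of the libraries.
Nme1: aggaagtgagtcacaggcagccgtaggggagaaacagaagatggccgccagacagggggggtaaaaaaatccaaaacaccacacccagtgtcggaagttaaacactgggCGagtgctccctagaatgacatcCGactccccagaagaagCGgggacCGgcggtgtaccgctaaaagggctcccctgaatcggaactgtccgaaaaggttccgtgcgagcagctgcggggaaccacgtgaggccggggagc
Brip1: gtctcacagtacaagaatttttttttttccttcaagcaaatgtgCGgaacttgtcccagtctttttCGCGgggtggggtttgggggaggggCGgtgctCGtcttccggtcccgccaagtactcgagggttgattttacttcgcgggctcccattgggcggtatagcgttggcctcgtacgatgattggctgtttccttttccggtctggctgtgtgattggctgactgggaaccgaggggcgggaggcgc
Pctp: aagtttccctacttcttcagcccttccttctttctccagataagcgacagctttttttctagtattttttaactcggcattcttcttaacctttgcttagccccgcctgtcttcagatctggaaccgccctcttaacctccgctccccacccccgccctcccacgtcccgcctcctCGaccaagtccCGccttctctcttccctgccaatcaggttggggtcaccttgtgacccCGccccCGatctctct
Wipf2: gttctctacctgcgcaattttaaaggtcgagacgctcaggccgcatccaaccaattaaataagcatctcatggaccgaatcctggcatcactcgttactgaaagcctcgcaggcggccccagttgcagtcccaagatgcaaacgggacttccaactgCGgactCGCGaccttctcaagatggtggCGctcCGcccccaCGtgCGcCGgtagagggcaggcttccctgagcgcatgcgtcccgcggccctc

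The letters matched listed positions at mm9 chr11:93829587-93829836 on the minus strand for Nme1, chr11:86014696-86014945 minus for Brip1, chr11:89864209-89864458 minus for Pctp and chr11:98724662-98724911 plus for Wipf2. The MspI site CCGG, which reads the same on both strands, was at letters 156 to 159 and 242 to 245 of Nme1, 105 to 108 and 201 to 204 of Brip1, and 205 to 208 of Wipf2, counting from 1 at the 5′ end. The printed letters of Pctp held no CCGG. Over the 32851 promoters of the table, 47.1% had a CCGG in the 250 bases before the start.

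Upstream of Nme1, the 4 knockin-only cytosines lay at letters 110, 133, 150 and 157, the last of them inside a CCGG. At position 93829703 (letter 133), the 3 MLL-AF9 knockin libraries had 12, 26 and 19 reads and the 2 cMyc-Bcl2 knockin libraries 11 and 7. The 5 WT libraries had 0 reads each. On the other strand of the CCGG, at position 93829680, all 10 libraries were covered, with 37, 35 and 32 reads in MLL-AF9 WT, 27, 42 and 44 in MLL-AF9 knockin, 20 and 50 in cMyc-Bcl2 WT, and 40 and 30 in cMyc-Bcl2 knockin. The genotypes thus overlapped on the gene side of the cut site and parted at the same cut site on the far side. Another 10 cytosines from letter 160 to letter 243 were also listed by all libraries with at least 5 reads. No CCGG stood before letter 156 in the printed letters. The same letters overlap the matched promoter of Gm35198, a RefSeq gene on the opposite strand.

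**Figure D1:**
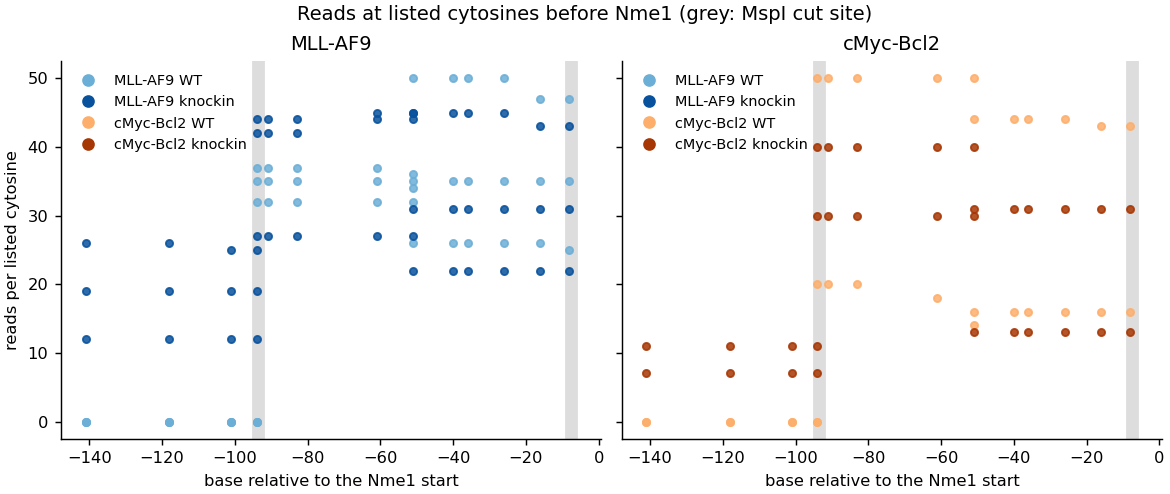
Reads per listed cytosine (vertical axis) against the distance in bases from the Nme1 start (horizontal axis), each point 1 library at 1 cytosine, MLL-AF9 on the left and cMyc-Bcl2 on the right; grey bands are CCGG sites. To the left of the first site, points of WT libraries are at 0 and those of knockin libraries at 7 to 26 reads.

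In the Wipf2 promoter, 8 cytosines from letter 158 to letter 206 were listed by the cMyc-Bcl2 knockin libraries alone, up to the CCGG at letter 205. At position 98724853 the 2 knockin libraries had 29 and 41 reads and the 2 WT libraries 0 and 0. The MLL-AF9 libraries had 3, 3 and 0 reads in WT and 17, 19 and 15 in knockin, so the groups did not overlap although the position was not absent from WT. The other cytosine of that CCGG, at 98724867, was listed in all 4 cMyc-Bcl2 libraries, with 13 and 34 reads in WT and 30 and 30 in knockin. In the Brip1 promoter the 5 cMyc-Bcl2 knockin-only cytosines lay between letters 45 and 99, and those from letter 106 on were listed in both genotypes. At position 86014854 the cMyc-Bcl2 knockin libraries had 17 and 60 reads and the WT libraries 0 and 0, while MLL-AF9 had 1, 0 and 0 in WT and 6, 4 and 13 in knockin. In Pctp the 4 marked cytosines had 5 to 59 reads in cMyc-Bcl2 knockin and 0 in cMyc-Bcl2 WT, beside 3 to 19 in MLL-AF9 knockin and 0 or 1 in MLL-AF9 WT.

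Over the whole stretch, 34 positions were listed with at least 5 reads in all 5 knockin libraries and with 0 reads in all 5 WT libraries. Over all autosomes there were 35, which is 0.00452% of the 775187 positions that reached 5 reads throughout a genotype. The remaining position was at 100225194, just beyond the stretch, and 0 lay on the other 18 autosomes. The opposite pattern, WT only, gave 0 positions in the stretch, which allows a share of up to 0.0306% of 9790 positions, and 0 (0%) over all autosomes. The chromosome 6 stretch had 0 of 4629 knockin-only positions, which allows up to 0.0648%. These limits cover counting error only, and neighbouring cytosines share reads, so positions are not independent. The reads were not scaled to library depth, which was 17564574 to 44388796 calls in knockin and 14446933 to 46762220 in WT libraries. The part of depth in these counts was not tested. Because the stretch was chosen by this contrast, nothing is read from its count.

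With a minimum of 1 read there were 71 knockin-only and 3 WT-only positions in the stretch, beside 138 and 205 over all autosomes, where WT-only positions were then the more numerous. With 10 reads there were 5 and 0 in the stretch, beside 6 and 0. The 34 positions fell into 11 runs, with gaps of at most 300 bp inside a run. Runs with at least 2 positions spanned 4 to 76 bp, shorter than the upper insert size of 280 bp. In 5 of the 11 runs a cytosine listed by every library lay within 300 bp. Pooled methylation of the knockin reads in those 5 runs was 0 to 1.34%. The other 6 runs, with no such neighbour, had 11.7 to 96.3%, and 3 of them were above 80%. Matched starts lay within 300 bp of 4 runs, those of Brip1, Smg8, Pctp and Nme1.

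The longest runs had 6 positions each. At chr11:87979204-87979279, 38611 bp from the matched start of Mrps23, mean reads per position were 5.83, 5.83 and 14.5 in MLL-AF9 knockin and 13.0 and 27.7 in cMyc-Bcl2 knockin, against 0 in each WT library. The knockin reads there were 14.3, 17.1, 20.7, 10.3 and 6.02% methylated. At chr11:88001181-88001241, 16649 bp from that start, mean reads were 11.2, 14.5 and 19.2 in MLL-AF9 knockin and 8.5 and 14.5 in cMyc-Bcl2 knockin, with at most 1.96% methylated in any library. Mrps23 encodes a protein of the small subunit of the mitochondrial ribosome. Runs hold only positions read in every knockin library and in no WT library, so this contrast follows from how they were picked. Within 300 bp of the second run, 4 cytosines were listed by every library, the nearest 1 bp away. The first run had 0 such neighbours.

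The 4 positions of chr11:86900211-86900233 lay 46 bp from the start of Smg8, which encodes a regulator of the kinase SMG1 in nonsense-mediated mRNA decay. Their mean reads were 9, 9 and 17.5 in MLL-AF9 knockin and 26.0 and 47.0 in cMyc-Bcl2 knockin, and 0 in every WT library. The nearest cytosine listed by all libraries was 26 bp away. Other runs were highly methylated. At chr11:88669687-88669696, 56204 bp from the start of Akap1, an anchor of protein kinase A on mitochondria, the knockin reads were 92.0 to 100% methylated in the 5 libraries. That run was picked with its values known.

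The 2 models differed in how far such positions reached along the chromosome. In MLL-AF9 taken alone, 58 autosomal positions were knockin only (0.00673% of those with enough reads) and 0 were WT only (0%). Of these, 38 lay in the stretch, all between 86014621 and 94127289, and 15 lay before it, between 75007687 and 84216227. In cMyc-Bcl2 alone, 299 were knockin only (0.0232%) and 1680 were WT only (0.131%). Of the knockin-only positions 143 lay in the stretch, from 85651426 to 99247493, and 0 lay between 75000001 and 85000000. Another 27 lay between 100000001 and 105000000, where MLL-AF9 had 1. In the stretch, cMyc-Bcl2 had 21 WT-only positions among 16033, a share of 0.131%. The difference in reach between models was not tested, and 2 libraries a group meet the criterion more easily than 3.

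**Figure D2:**
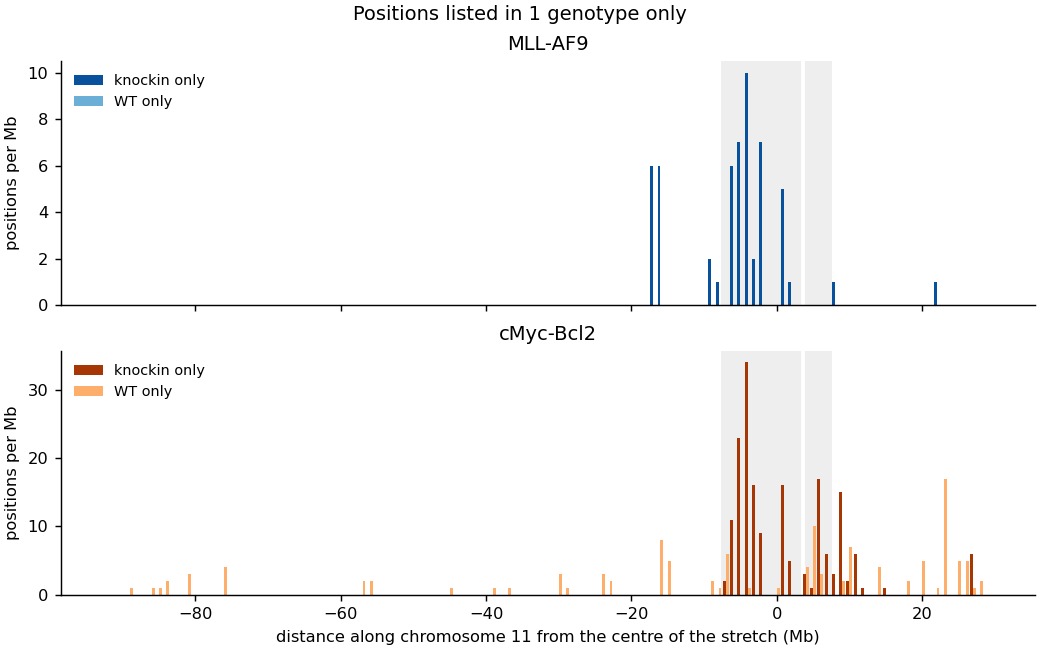
Number of positions listed in 1 genotype only per Mb of chromosome 11 (vertical axis) against distance from the centre of the stretch in Mb (horizontal axis), MLL-AF9 above and cMyc-Bcl2 below; the stretch is shaded and the segment left out is white. Of 55 knockin-only positions of MLL-AF9 on the chromosome, 38 lie in the stretch, mostly in its first part. Of 177 in cMyc-Bcl2, 143 lie in the stretch, and others continue past its end.

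Pairs of libraries were also compared directly, by the share of positions with at least 10 reads in 1 library and 0 in the other. Over all autosomes this share had a median of 1.01% in MLL-AF9 pairs of the same genotype and 1.18% in pairs of different genotype, and 1.19% and 1.08% in cMyc-Bcl2. In the megabase from 88000001, the medians were 1.35% and 3.34% in MLL-AF9 and 1.80% and 5.97% in cMyc-Bcl2. In the megabase from 94000001, where the gene order places Col1a1, they were 0.838% and 0.306% in MLL-AF9 and 1.20% and 1.10% in cMyc-Bcl2. Every cMyc-Bcl2 pair of different genotype disagreed more than either pair of the same genotype in 4 megabases, those from 85000001, 88000001, 89000001 and 93000001, all in the stretch. In MLL-AF9 this held in 0 megabases of the chromosome. The stretch was chosen by listed positions of the genotypes, so the place of these megabases is no separate result. In cMyc-Bcl2 each megabase had 2 pairs of the same genotype and 4 of different genotype.

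Read depth of single windows parted the genotypes in both directions. All 5 knockin libraries lay above all 5 WT libraries with at least a 2-fold difference of means in 18 windows of the stretch (0.0215% of all autosomal windows met this) and below them in 9 (0.0945% over all windows). The rest of chromosome 11 had 2 and 20, and the chromosome 6 stretch 0 and 2. The lower windows numbered 16 (0.224% over all windows) without MLL-AF9 WT replicate 1 and 19 (0.304%) without MLL-AF9 WT replicate 3. They numbered 17 (0.148%), 25 (0.334%) and 19 (0.221%) without MLL-AF9 knockin replicates 1, 2 and 3, and 34 (0.619%) without cMyc-Bcl2 WT replicate 2, so the share over all windows rose too. The higher windows numbered 18 to 27 when any single library was left out. The 27 came without MLL-AF9 WT replicate 2, beside 289 over all autosomes. With windows of 5 kb, 6 of 1911 were higher, beside 0.0141% over all autosomes. Of the 18 higher windows, 16 held a knockin-only position of cMyc-Bcl2 and 4 held one of both models, while the 9 lower windows held 0 positions listed in 1 genotype only. Both measures come from the same reads.

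The higher windows were mostly near 0 in WT. In 15 of the 18, at least 1 WT library had no call. In the 16 with more than 3 WT calls, the ratio of mean depth, knockin over WT, reached 40.8. The window from 87690001 had 0 calls in all WT libraries and 0.352 ± 0.167 read calls, scaled to 1000000 per library, in knockin (SD, n = 5), at least 15.4-fold higher than a floor of 3 calls over the WT libraries together. In the 9 lower windows every WT library had calls, and the ratio was 0.309 to 0.472 with a median of 0.421.

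Among windows with at least 2 CPM in the higher genotype, 2 were higher in knockin. The window from 86900001 covers the Smg8 start. Its depth was 7.41, 5.29 and 4.71 CPM (read calls scaled to a library of 1000000) in MLL-AF9 WT, 6.06 and 4.41 in cMyc-Bcl2 WT, 13.9, 9.26 and 16.8 in MLL-AF9 knockin, and 10.6 and 17.2 in cMyc-Bcl2 knockin. The lowest knockin library stood above the highest WT library, with means of 13.6 ± 3.58 and 5.57 ± 1.20 (SD, n = 5 each), a ratio of 2.43. The window from 86966001, 25424 bp from the start of the ubiquitin ligase gene Trim37, had 6.41 ± 1.89 in knockin and 2.67 ± 0.711 in WT (SD, n = 5 each), a ratio of 2.40. Its lowest knockin value was 3.75 and its highest WT value 3.33, so the groups nearly touched.

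Another 4 windows at that level were lower in knockin. The window from 98723001 ends 912 bp before the Wipf2 start, on the side of the knockin-only positions printed above. Its depth was 3.56, 4.94 and 5.54 CPM in MLL-AF9 WT, 6.94 and 5.80 in cMyc-Bcl2 WT, 2.56, 2.81 and 1.23 in MLL-AF9 knockin, and 3.49 and 1.80 in cMyc-Bcl2 knockin. The means were 5.35 ± 1.24 in WT and 2.38 ± 0.883 in knockin (SD, n = 5 each), a ratio of 0.444, with 3.49 and 3.56 as the closest values. The window from 88710001, 14900 bp from the Akap1 start, had 2.97 ± 0.388 in WT and 1.40 ± 0.366 in knockin, a ratio of 0.472. It lay near the window from 88708001, where knockin exceeded WT, with 0.930 ± 0.201 against 0.0929 ± 0.0461. The window from 86629001 had a ratio of 0.355 and that from 99424001 a ratio of 0.433, the latter 521443 bp from the nearest matched start, that of Igfbp4.

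**Figure D3:**
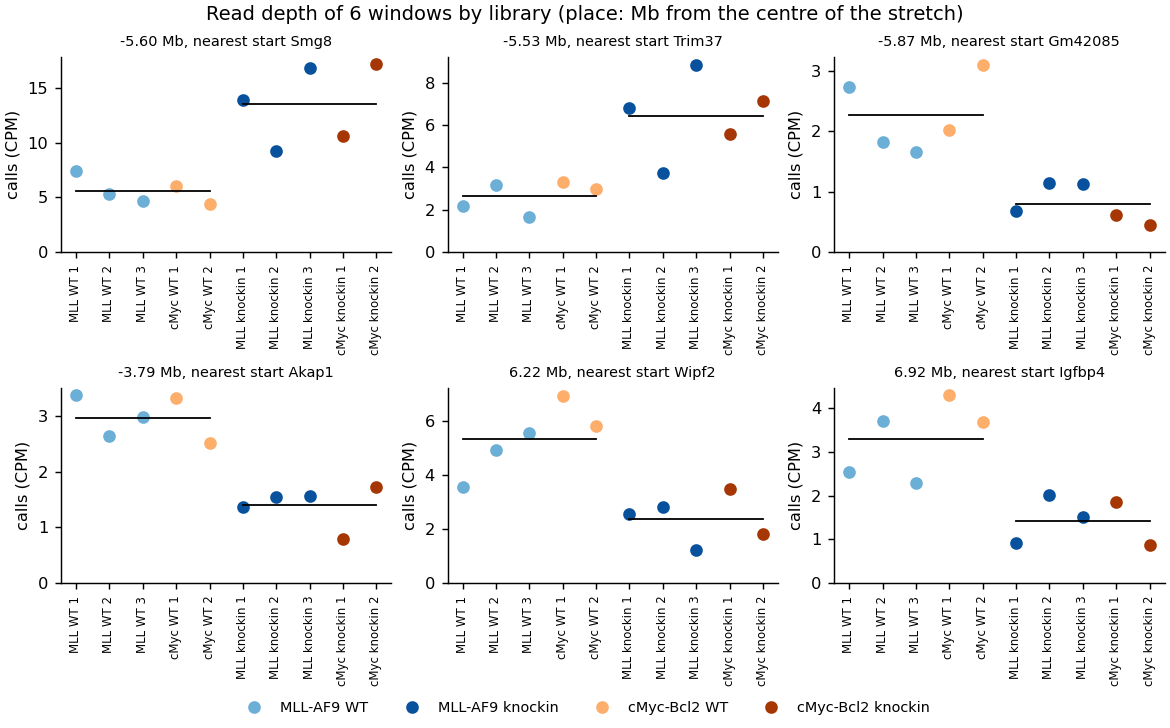
Read calls in CPM (vertical axis, from 0) in each of the 10 libraries (horizontal axis) for the 6 windows described; black lines are means of the 5 WT and the 5 knockin libraries. In the first 2 windows all knockin points lie above all WT points and in the other 4 below them, at ratios of 0.355 to 0.472.

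A further pattern was seen at 4 single cytosines, which had high methylation in every WT library and an intermediate level in every knockin library. Of 24605 autosomal positions with at least 10 reads in every library and at least 80% methylation in every WT library, 4 were at 70% or less in every knockin library (0.0163%). All 4 lay in the stretch, which held 255 of the 24605. The reverse pattern was met by 20 positions over all autosomes, of which 1 lay in the stretch. These levels were set after the values were seen, and a minimum of 20 reads per library left 0 of the 4.

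At position 88181443, methylation was 90.0, 95.5 and 100% in MLL-AF9 WT, 95.8 and 94.1% in cMyc-Bcl2 WT, 33.3, 55.2 and 35.3% in MLL-AF9 knockin, and 66.7 and 45.5% in cMyc-Bcl2 knockin, from 10 to 34 reads. The 2 other cytosines within 100 bp with that coverage were at 96.2% in WT and 93.4% in knockin, so the difference was carried by 1 cytosine. At 88289731 the levels were 100, 100 and 94.7% in MLL-AF9 WT, 96.2 and 97.1% in cMyc-Bcl2 WT, 58.8, 57.9 and 50% in MLL-AF9 knockin, and 53.6 and 46.2% in cMyc-Bcl2 knockin. The means there were 97.6% ± 2.35 and 53.3% ± 5.33 (SD, n = 5 each).

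At 88964665 the means were 97.4% ± 3.51 in WT and 50% ± 9.81 in knockin (SD, n = 5 each). The cytosine on the opposite strand of that CpG, with 3 to 19 reads, was at 96.2% in WT and 98.9% in knockin, so 1 strand was intermediate and the other was not. At 96848272, 9270 bp from the start of the zinc finger factor gene Sp2, the means were 92.7% ± 7.61 and 44.0% ± 7.92 (SD, n = 5 each). There the opposite strand followed, at 81.0% in WT and 46.0% in knockin from 4 to 33 reads, while the 6 neighbours within 100 bp went from 79.0 to 87.5%. With 10 to 49 reads a library, each level carries a wide counting interval.

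**Figure D4:**
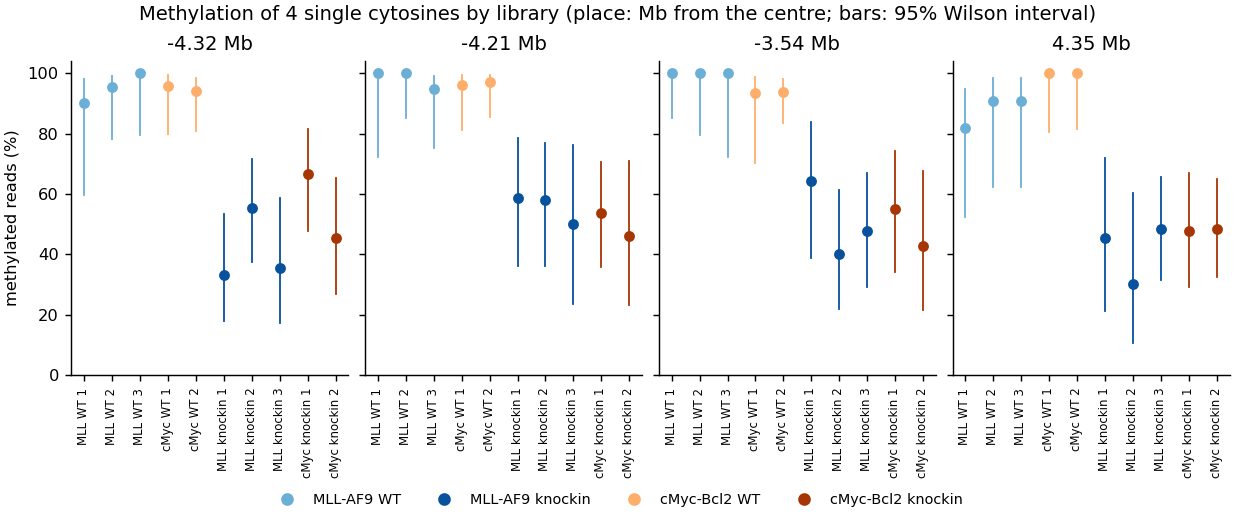
Percent of methylated reads (vertical axis) in each of the 10 libraries (horizontal axis) at the 4 cytosines, with 95% Wilson intervals as bars. WT libraries stand at 81.8 to 100% and knockin libraries at 30.0 to 66.7%.

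Mean methylation was higher in knockin than in WT throughout, and the stretch did not stand alone in this. Over its 3556 positions with at least 10 reads in every library, MLL-AF9 WT libraries were at 16.6, 17.2 and 15.9% and MLL-AF9 knockin libraries at 19.9, 19.6 and 18.2%. In cMyc-Bcl2 the WT libraries were at 17.0 and 16.8% and the knockin libraries at 21.0 and 19.7%. No knockin library overlapped with a WT library. The mean of the differences within each model was 3.06 percentage points, beside 2.61 over the rest of chromosome 11, 1.79 over the chromosome 6 stretch and 2.35 over all autosomes. With at least 20 reads it was 0.640 points over 478 positions, beside 0.924 over the rest of chromosome 11 and 0.728 over all autosomes. The chromosome 6 stretch then had 0.499. With each read weighted equally in place of each position, the stretch had 1.55 points, below the 2.07 of the rest of chromosome 11. The chromosome 6 stretch had 0.524 and all autosomes 0.519 by that measure.

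**Figure D5:**
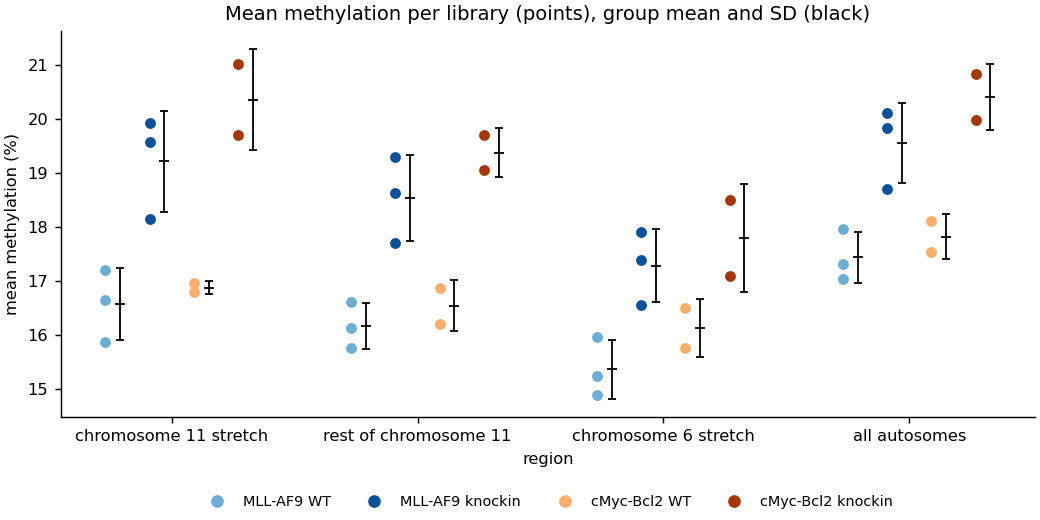
Mean methylation in percent (vertical axis, which does not start at 0) over positions with at least 10 reads in all libraries, for 4 regions (horizontal axis); coloured points are libraries and black bars are group means ± SD. In each region the knockin points lie above the WT points of the same model, in the stretch at 18.2 to 21.0% against 15.9 to 17.2%.

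By window, with at least 3 such positions each, knockin exceeded WT without overlap in both models in 27 of 303 windows of the stretch. This was 8.91%, beside 5.91% over all autosomes, 6.12% over the rest of chromosome 11 and 9.23% over the chromosome 6 stretch. Knockin lay below WT in 1 window of the stretch (0.301% over all autosomes). The 3 largest gains of the stretch lay in its last 3 megabases. At chr11:98798035-98798116, 894 bp from the start of Rara, the gene of retinoic acid receptor alpha, 3 positions were at 9.62, 8.97 and 4.44% in MLL-AF9 WT, 36.5, 23.1 and 31.1% in MLL-AF9 knockin, 22.4 and 35.2% in cMyc-Bcl2 WT, and 62.2 and 64.2% in cMyc-Bcl2 knockin. The models differed in level, and the knockin excess was 22.6 points for MLL-AF9 libraries and 34.4 for cMyc-Bcl2 libraries. With at least 5 reads a position in place of 10, the mean difference of that window was 12.8 points. At the Rara promoter itself, 11 positions averaged 0.390% ± 0.0832 in WT and 0.569% ± 0.345 in knockin (SD, n = 5 each).

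At chr11:98835141-98835169, 36131 bp from that start, 3 positions of the MLL-AF9 libraries averaged 65.9% ± 15.2 in WT against 89.9% ± 3.03 in knockin (SD, n = 3 per group). The cMyc-Bcl2 libraries averaged 55.7% ± 9.62 and 91.9% ± 1.85 there (SD, n = 2 per group). At chr11:97413229-97413289, 8 positions were at 11.6% ± 4.63 in MLL-AF9 WT and 41.7% ± 9.55 in MLL-AF9 knockin (SD, n = 3 each), and at 27.7% ± 13.4 and 50.8% ± 6.69 in cMyc-Bcl2 (SD, n = 2 each). None of these 3 windows was among those parted by depth. The 1 window that was lower, at chr11:88181429-88181523, holds the intermediate cytosine at 88181443, and its other positions were at 96.2% in WT and 93.4% in knockin.

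Matched promoters of the stretch with enough coverage were mostly unmethylated, with medians of 0.887% in WT and 0.873% in knockin. A match needed at least 10 listed positions, so promoters with fewer were not seen. Of 44 genes with at least 3 covered positions in the matched promoter, 42 were under 10% in every WT library. The median difference, knockin minus WT, was 0.0495 percentage points. With all 5 knockin libraries set against all 5 WT libraries, 0 promoters lay above or below WT without overlap. Compared within models, as the windows were, Med1 lay above WT in both, by a mean of 0.649 points. The promoter of Car10, which encodes a carbonic anhydrase-related protein, differed most, with 16.9, 22.9 and 18.9% in MLL-AF9 WT, 29.5, 30.8 and 14.8% in MLL-AF9 knockin, 26.4 and 24.6% in cMyc-Bcl2 WT, and 55.9 and 34.7% in cMyc-Bcl2 knockin. The MLL-AF9 groups overlapped and the cMyc-Bcl2 groups did not. Pdk2 was at 3.12 and 10.4% in cMyc-Bcl2 knockin, 1.89 and 1.26% in cMyc-Bcl2 WT, and at most 1.98% in MLL-AF9. Of 38 genes looked for in the region, 6 could be measured: Nme1, Nme2, Brip1, Stxbp4, Nfe2l1 and Rara. Their differences were between -0.212 and 0.172 points, so the knockin-only positions at Nme1 and Brip1 stood beside unmethylated shared positions.

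The WT libraries of both leukaemias were compared with each other, a contrast that did not enter the choice of the stretch. Between the WT leukaemias, 0 of 1785 windows of the stretch differed in depth (limma with voom weights, Benjamini-Hochberg adjustment over all windows, smallest adjusted p = 0.201), beside 0% over all autosomes. At an unadjusted p under 0.05 there were 313 windows, 17.5% of those tested, beside 17.4% over all autosomes. Without cMyc-Bcl2 WT replicate 2, 240 of 1655 windows were called by limma, 184 higher and 56 lower in cMyc-Bcl2, beside 13.2% over all autosomes. In that fit the single remaining cMyc-Bcl2 library, replicate 1, is assumed to vary like the MLL-AF9 libraries. Scaling by the median log ratio and limma-trend on log values also called 0 windows.

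The genotype difference in depth was also compared between models, by an interaction term over all 10 libraries. Here 0 of 2040 windows were called (limma with voom weights, smallest adjusted p = 1.00), beside 0% over all autosomes. An unadjusted p under 0.05 was reached by 92 windows, 4.51% of those tested, beside 3.83% over all autosomes. Methylation between WT leukaemias differed in 0 of 332 windows of the stretch (limma on M-values, smallest adjusted p = 0.110), with 28 at an unadjusted p under 0.05, 8.43% of those tested beside 9.57% over all autosomes. Over all autosomes 0.0917% of windows were called higher and 0.0279% lower in cMyc-Bcl2. With 1 in place of 0.5 added to the reads, 1 window of the stretch was called lower, beside 0.391% of windows called over all autosomes. A count of 0 in these fits does not show that the windows were alike.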

How the data were processed

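The submitters' processing notes name CASAVA, Trim Galore 0.2.2, Bismark 0.7.4, methylKit and the mm9 build. Per the labels' protocols, MspI fragments with inserts of 40 to 280 bp were bisulfite converted and sequenced. The deposited files list, for each library, methylated and unmethylated reads at each cytosine, with the strands of a CpG listed separately. A read that crosses several CpGs gives several calls, so calls are not independent molecules. Mitochondrial cytosines were 0.910 to 3.20% methylated.

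Calls were summed in windows of 1000 bp and scaled to 1000000 calls per library (CPM). A position was called knockin only or WT only when all libraries of 1 genotype had at least 5 reads and 0 in the other. Methylation used positions with at least 10 reads in every library. WT leukaemias, and the interaction of genotype and model, were tested with limma 3.58.1 in R 4.3.3 (voom with library totals for depth, M-values with 0.5 added for methylation), on windows with at least 10 calls in at least 2 libraries for depth and at least 3 covered positions for methylation, with Benjamini-Hochberg adjustment over all autosomes. limma replaced the count test first chosen, because each deposited value is a pair of numbers in 1 field. For depth each pair was summed to 1 count, so there the format did not prevent a count test. The fits were tested on simulated data. Other steps used Python 3.11.15, numpy 2.4.6 and pandas 2.3.3.

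Promoters from the RefSeq table of GRCm38.p6 were matched by CpG spacing, with at least 10 matched positions and a lead of at least 4 over the next place. Of 2289 promoters on chromosome 11, 713 were matched in gene order. Windows were named where they were among the 5 with the largest depth ratio each way at 2 or more CPM, the 3 longest runs (4, with a tie) or the 3 largest methylation differences each way. The members, gene list and rules were chosen with earlier results of these data known.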

Additional observations from a re-analysis of the deposited data

How the results depend on the processing

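Knockin-only positions of the stretch numbered 71 with a minimum of 1 read (138 over all autosomes) and 5 with 10 reads (6). Without any single library they numbered 34 to 39. WT-only positions numbered 3 with 1 read (205 over all autosomes) and 0 to 0 without any single library. Leaving out a library can only keep or add such positions, so the 34 could not fall and is no sign of stability. Windows of higher depth in knockin numbered 6 at 5 kb (31 over all autosomes) and 18 to 27 without any single library (289 beside the 27). Those of lower depth numbered 14 with no minimum fold (315), 0 at 4-fold (195), and 10 to 34 without any single library (1788 beside the 34). The mean methylation difference was 0.640 points with at least 20 reads, 1.55 with each read weighted equally, and 2.73 to 3.40 without any single library. Between WT leukaemias, limma called 0 to 240 windows by depth without any single library, with the 240 coming without cMyc-Bcl2 WT replicate 2, and 1 window by methylation with 1 added to the reads (0.391% over all autosomes). The cause of these changes was not tested. Of the alternatives for results over the whole stretch, 83 stayed within their limits and 16 moved. Of the values of single windows, runs and cytosines, 168 stayed within their limits, 6 moved and 0 reversed. Among these, the counts of positions in runs and of intermediate cytosines could likewise not fall when a library was left out. The limit was a fixed ratio for counts and the largest SD within a group for other values. No paired analysis was possible because the replicates were numbered in accession order and the labels give no number shared between groups. The alternatives with DESeq2 size factors and edgeR's filter were not run, because those tools were not used on paired values. Depth was a summed count, so for depth this was a choice. The intermediate cytosines rest on 10 to 49 reads a library, which limits the precision of their levels.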
